A study of Mus musculus with 12 samples.

Results

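The ALG genes encode enzymes that build the lipid-linked precursor of N-glycans, and 10 of them (Alg1, Alg2, Alg3, Alg5, Alg6, Alg8, Alg9, Alg10b, Alg11 and Alg12) were taken by gene name from tables of 41079 mouse gene IDs. The set was chosen by the measured TPM of Alg8, which was among the largest falls in a Bod1l knockout, so every difference between the genotypes is given below as a description, without a p value. Alg13 and Alg14 also carry the ALG name but were not part of the set, and they are described with the other assembly genes. RNA was measured by paired-end sequencing in 12 libraries of mouse embryonic stem cells, a cultured cell type of the early embryo that can form all tissues. The 3 libraries of the first group came from cells labelled as a Bod1L knockout with tamoxifen and given etoposide, which poisons topoisomerase II and leaves breaks in DNA. The other groups, again of 3 libraries each, were the knockout with tamoxifen and no etoposide, wild-type cells with etoposide, and untreated wild-type cells. The protein made from Bod1l belongs to the histone methyltransferase complex of SETD1A, and the series asks how it bears on the expression of DNA repair genes. Tamoxifen is named for the knockout libraries alone, so its effect and that of the knockout cannot be told apart. The labels give no strain, clone, dose, duration or deleted part of the gene.

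The knocked-out gene separated the genotypes. Bod1l ranged from 11.7 to 12.95 TPM (a transcript level scaled by gene length and by the total of the library) in the etoposide-treated knockout and from 11.2 to 12.0 in the untreated knockout, against 46.5 to 51.1 in etoposide-treated wild type and 48.5 to 50.6 in untreated wild type. The libraries held 5.23 to 7.76 gigabases of aligned sequence. The 7 stem cell markers summed to between 6809 and 7816 TPM per library, lowest in the treated knockout and highest in untreated wild type, with Dppa5a the most abundant. Dppa5a and Pou5f1 were called lower in the knockout than in wild type in both treatments. Nanog, Zfp42, Esrrb and Klf4 were called higher in the knockout than in wild type among etoposide-treated cells only, and Sox2 was called in neither. Between treated and untreated cells, Nanog, Zfp42 and Pou5f1 were called lower with etoposide in both genotypes. In that comparison 1 of the 7 was called higher in the knockout and 0 in wild type. The 6 fibroblast feeder markers summed to 4.76 to 7.504 TPM. Most of that was Thy1, at 2.95 to 6.20 TPM, which was called lower in the knockout in both treatments. Col1a1, at 0.64 to 1.63 TPM, was called higher with etoposide in both genotypes. Col1a2 reached at most 0.52 TPM, and Postn, Dcn and Col3a1 were at or near 0. Endoderm markers summed to 2.63 to 3.37 TPM in the untreated knockout, against 1.39 to 2.03 in untreated wild type. With etoposide the sums were 2.82 to 3.58 and 2.29 to 3.16 in the same order. Gata4, the 1 endoderm marker tested, was called higher in the knockout in untreated cells only, at 1.58 TPM against 0.87 TPM. Trophectoderm markers summed to 59.4 to 65.9 TPM in the knockout, against 73.6 to 78.5 in wild type. Of the trophectoderm markers Tfap2c was called lower, at 32.4 TPM in the untreated knockout against 47.7 TPM in untreated wild type. Cdx2 was called higher, at 3.25 TPM against 2.11 TPM, and Krt8 was not called, at 29.5 TPM against 26.5 TPM. The part these marker shifts play in the results below was not tested. In bulk RNA, fewer cells of a type and less RNA per cell cannot be told apart.

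N-glycosylation begins on the lipid dolichol. On the cytosolic face of the endoplasmic reticulum, N-acetylglucosamine is added first, then mannose by ALG1, ALG2 and ALG11. The lipid-linked sugar is then turned to the lumenal side, where ALG3, ALG9 and ALG12 add further mannose from dolichol-phosphate-mannose, and ALG6, ALG8 and ALG10 add glucose from dolichol-phosphate-glucose, which ALG5 makes. The oligosaccharyltransferase moves the finished sugar onto asparagine residues of new proteins, and inherited defects of these genes in humans cause congenital disorders of glycosylation.

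All 10 genes were detected in every library, and all 10 passed the filter of a mean of at least 1 TPM over the libraries. In untreated cells the knockout held less RNA of Alg8, Alg1, Alg12, Alg3 and Alg6, and more of Alg2. With etoposide present the same 6 genes passed in the same directions, and Alg5 was lower too. Alg8 differed by far the most, keeping 16.9% of its wild-type level, while Alg9, Alg10b and Alg11 did not pass in either comparison. A change was called at an adjusted p under 0.05 (limma across 14107 genes, Benjamini-Hochberg). In untreated cells 5 members were called lower and 1 higher of 10, beside 21.5% and 28.1% of all genes (49.6% in either direction). With etoposide 6 were lower and 1 was higher of 10, beside 21.7% and 22.5% of all genes (44.1% in either direction). The median difference over the members was -0.20 in log2(TPM + 1) without etoposide and -0.32 with it, against 0.04 and 0.02 for all genes. Fold changes of weakly expressed genes come out too small on that scale. Because the contrast was used to choose the set, these counts describe it and are no evidence about it. In untreated cells 5 members had all knockout libraries below all wild-type ones and 1 had all above, a separation in one direction or the other that 57.4% of all genes showed (24.7% below and 32.8% above). With etoposide 6 members were fully below and 2 fully above, beside 26.1% and 28.1% of all genes. Both comparisons of genotypes use separate libraries.

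**Figure D1:**
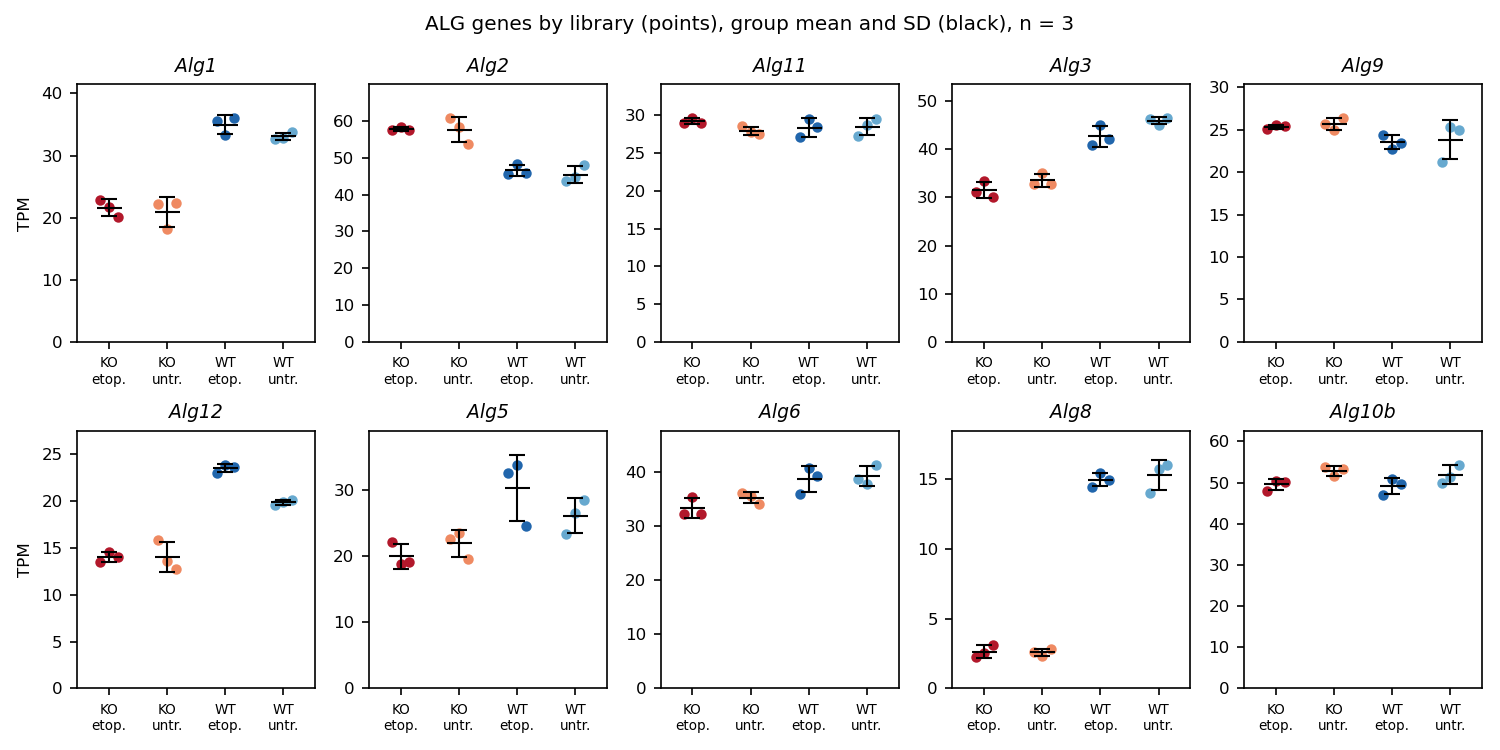
TPM of the 10 ALG genes in each of the 12 libraries (points), with the group mean and SD (black, n = 3), for the knockout with etoposide, untreated knockout, wild type with etoposide and untreated wild type. The knockout libraries of Alg8 lie between 2.25 and 3.12 TPM, far below the wild-type libraries at 14.0 to 16.0 TPM, whereas Alg10b and Alg11 overlap between genotypes.

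Alg8 encodes the glucosyltransferase that adds the second glucose to the precursor. The gene lies on the plus strand of chromosome 7 from 97020774 to 97041366 (GRCm39). Its level was 2.61, 2.32 and 2.82 TPM in the 3 untreated knockout libraries, against 14.0, 15.8 and 16.0 TPM in untreated wild type. With etoposide it was 2.25, 2.55 and 3.12 TPM in the knockout, against 14.5, 15.4 and 14.9 TPM in wild type. No knockout library came near a wild-type one, and the knockout libraries of both treatments overlapped each other. The difference was -2.18 ± 0.09 (SE) in log2(TPM + 1) in untreated cells and -2.14 ± 0.09 with etoposide, which placed Alg8 as the 7th and the 9th lowest of 14107 genes. The mean read depth over the gene was 3.92 to 4.79 in untreated knockout libraries, against 31.2 to 32.7 in untreated wild type, so the knockout values rest on far fewer reads. Alg8 made up 0.796% to 0.986% of the summed TPM of the 10 genes in the untreated knockout, against 4.43% to 4.80% in untreated wild type. No gene overlaps it in the tables, and none on the other strand starts within 1000 bases of its start.

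The promoter of Alg8 is shown because this gene changed most. The RefSeq window has the 250 bases before the annotated start, chr7:97371367-97371616 on the plus strand of GRCm38.p6, a different build from that of the coordinates above. Capitals mark a GGGCGG box and a pair of GCATGCGC matches, the core of the consensus of the transcription factor NRF1.
Alg8: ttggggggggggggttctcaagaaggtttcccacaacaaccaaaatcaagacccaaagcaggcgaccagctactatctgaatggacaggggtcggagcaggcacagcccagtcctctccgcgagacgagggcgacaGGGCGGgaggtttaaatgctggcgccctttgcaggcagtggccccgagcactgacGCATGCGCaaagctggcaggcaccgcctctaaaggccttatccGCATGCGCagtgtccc
GCATGCGC was searched on both strands after this sequence had been read, and 2.71% of 32851 RefSeq promoter windows of 300 bases held it. Alg8 was the only one of the 8 ALG genes with a window in the table to hold it. GGGCGG, searched likewise, was in 35.7% of all windows and in 6 of those 8. A CCGGAAG match, the core bound by ETS factors, lies across the annotated start of Alg8, and 8.86% of all windows held one. A match is a description of the letters and not a bound site.

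Among the genes whose pattern was most like that of Alg8 over the 12 libraries were Mrpl2, Babam2, Thumpd3 and Orc5, with Pearson's r of 0.9975, 0.9974, 0.9961 and 0.9959 in log2(TPM + 1). All of these r values describe the same split by genotype. Babam2 averaged 25.4 TPM over the 6 knockout libraries, against 63.1 TPM over the 6 wild-type libraries. Thumpd3 averaged 57.7 TPM in the knockout, against 94.1 TPM in wild type. Among the ALG genes, Alg1 came closest with r = 0.96, followed by Alg3 with 0.95 and Alg12 with 0.94, and Alg2 ran opposite with -0.95. Of the tested genes other than clone, model and pseudogene names, 442 had a higher r with Alg8 than Alg1 had.

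The other enzymes of the glucose branch differed less. Alg6, which adds the first glucose, was at 36.1, 35.5 and 34.1 TPM in untreated knockout libraries, against 38.7, 37.9 and 41.4 TPM in untreated wild type. With etoposide Alg6 was at 32.3, 35.4 and 32.3 TPM in the knockout, against 36.0, 40.8 and 39.2 TPM in wild type. All knockout libraries lay below all wild-type libraries within each treatment, by small margins. The differences were -0.15 ± 0.05 and -0.21 ± 0.05 in log2(TPM + 1), and the call in untreated cells was lost without the filter on low values. It was also lost without replicate 1 or 3 of untreated wild type or replicate 2 or 3 of the untreated knockout, with differences of -0.16, -0.12, -0.16 and -0.13. The ratio of Alg8 to Alg6 within a library was 0.065 to 0.083 in the untreated knockout, against 0.363 to 0.416 in untreated wild type. Alg10b, which adds the last glucose, was at 53.8, 51.5 and 53.3 TPM in untreated knockout libraries, against 49.9, 51.4 and 54.4 TPM in untreated wild type. Its groups overlapped, and the difference of 0.03 had a 95% interval of -0.06 to 0.12. The 3 glucosyltransferases thus stood at 16.9%, 89.7% and 102% of their untreated wild-type means in the order Alg8, Alg6, Alg10b.

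Alg5, which makes the glucose donor dolichol-phosphate-glucose, had the largest SE of the members in the fit. Its untreated knockout libraries were at 22.7, 23.6 and 19.6 TPM, against 23.4, 26.6 and 28.6 TPM in untreated wild type. The groups overlapped in TPM, and the difference of -0.24 ± 0.12 in log2(TPM + 1) did not pass. Mean read depth over Alg5, which is unscaled, did not overlap. It was 14.3 to 19.3 in the untreated knockout and 29.1 to 30.0 in untreated wild type. Those libraries held 5.23 to 6.51 and 6.64 to 7.30 gigabases of aligned sequence, in the same order. With etoposide Alg5 was at 22.2, 18.8 and 19.1 TPM in the knockout, against 32.6, 33.9 and 24.6 TPM in wild type. Every treated knockout library was below every treated wild-type library, with a difference of -0.57 ± 0.12. In TPM, replicate 3 of treated wild type was far below the other replicates of its group. In unscaled mean read depth it was not, at 29.2 against 25.3 and 32.1 in replicates 1 and 2. Replicates 1, 2 and 3 held 5.78, 7.04 and 6.77 gigabases of aligned sequence. Leaving replicate 3 out gave a difference of -0.71. The change between the treatments was itself tested, and the interaction of -0.33 ± 0.17 did not pass (adjusted p = 0.504, limma with Benjamini-Hochberg adjustment).

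**Figure D2:**
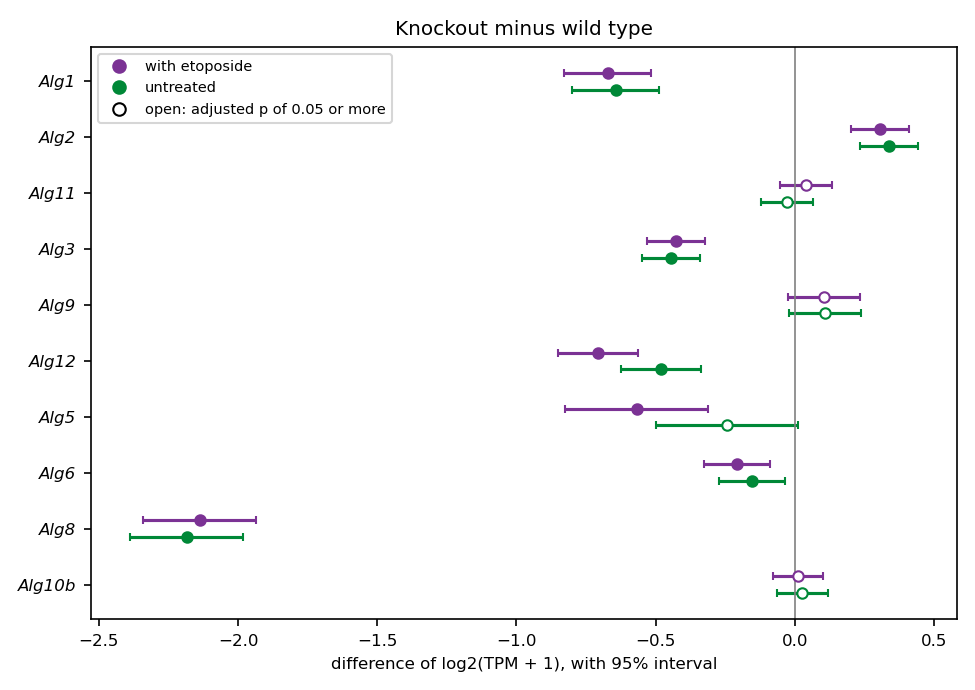
Difference of log2(TPM + 1), knockout minus wild type, for each ALG gene with etoposide (purple, upper) and untreated (green, lower), with 95% intervals from the fit across all genes (n = 3 libraries per group). Filled points have an adjusted p under 0.05. Alg8 lies beyond -2.0, Alg1, Alg3 and Alg12 lie between -0.71 and -0.43, and Alg2 is the called gene on the right of 0.

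The cytosolic mannosyltransferases went 3 ways. Alg1 adds the first mannose and lies on chromosome 16 from 5051410 to 5062773 (GRCm39, plus strand). It was at 22.2, 18.2 and 22.3 TPM in the untreated knockout, against 32.7, 32.8 and 33.7 TPM in untreated wild type. With etoposide it was at 22.9, 21.7 and 20.1 TPM in the knockout, against 35.6, 33.3 and 36.0 TPM in wild type. The genotypes were clearly apart in both treatments, with differences of -0.64 ± 0.07 and -0.67 ± 0.07 in log2(TPM + 1) and 63.2% and 61.7% of the wild-type mean left. The last 755 bases of Alg1 overlap Eef2kmt, a gene on the other strand. Whether the authors' counting used strand is not stated, and without strand reads from this overlap cannot be assigned. Eef2kmt was also lower in the knockout, at 27.8 ± 1.79 TPM against 33.4 ± 1.41 TPM in wild type, untreated (SD, n = 3).

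Alg2 adds the second and the third mannose and was the member that was higher in the knockout. Its level was 60.8, 58.3 and 53.9 TPM in the untreated knockout, against 43.6, 44.7 and 47.9 TPM in untreated wild type. With etoposide it was 57.5, 58.5 and 57.5 TPM in the knockout, against 45.6, 48.3 and 45.9 TPM in wild type. No libraries overlapped between genotypes, and the differences were 0.34 ± 0.05 and 0.31 ± 0.05 in log2(TPM + 1). Alg11, which adds the last mannoses on the cytosolic side, lay between 27.5 and 29.6 TPM in knockout libraries, against 27.1 and 29.6 TPM in wild type. Its difference had a 95% interval of -0.12 to 0.07 in untreated cells and -0.05 to 0.13 with etoposide.

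Of the mannosyltransferases of the lumen, Alg3 and Alg12 were lower and Alg9 was not called. Alg3 adds the first lumenal mannose and lies on the minus strand of chromosome 16 from 20424208 to 20429515 (GRCm39). It was at 32.7, 34.98 and 32.9 TPM in the untreated knockout, against 46.3, 45.1 and 46.5 TPM in untreated wild type. With etoposide it was at 31.0, 33.3 and 30.1 TPM in the knockout, against 41.0, 45.0 and 42.0 TPM in wild type. Alg3 kept 72.9% of its wild-type mean without etoposide and 73.8% with it, and its differences were -0.44 ± 0.05 and -0.43 ± 0.05 in log2(TPM + 1). Alg9, which acts both before and after ALG12, was at 25.7 ± 0.68 TPM in the untreated knockout and 23.8 ± 2.28 TPM in untreated wild type (SD, n = 3). The difference, 0.11 ± 0.06 in log2(TPM + 1), did not pass, nor did that with etoposide. With etoposide all knockout libraries of Alg9 lay above all wild-type ones, at 25.1 to 25.5 TPM against 22.7 to 24.4 TPM, a separation seen in 54.3% of all genes in that comparison.

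Alg12 adds a mannose on the branch between the steps of ALG9 and lies on the minus strand of chromosome 15 from 88689448 to 88703498 (GRCm39). In the untreated knockout it was at 15.8, 13.6 and 12.7 TPM, against 19.6, 19.9 and 20.1 TPM in untreated wild type. With etoposide it was at 13.5, 14.5 and 14.0 TPM in the knockout, against 23.0, 23.9 and 23.7 TPM in wild type. The genotypes did not overlap, and the differences were -0.48 ± 0.07 and -0.71 ± 0.07 in log2(TPM + 1). The knockout thus held 70.6% of the wild-type mean without etoposide and 59.6% with it.

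Several members start close to a gene on the other strand. Within 1000 bases between starts, these head-to-head partners were Creld2 for Alg12 (351 bases), Sec61b for Alg2 (294), Exosc8 for Alg5 (491), Atp7b for Alg11 (384) and Eef1akmt4 with the readthrough gene Eef1ece2 for Alg3 (836). Creld2, an endoplasmic reticulum protein induced by unfolded proteins, moved opposite to Alg12. It was at 181, 171 and 174 TPM in the untreated knockout, against 136, 135 and 139 TPM in untreated wild type. All knockout libraries were higher, with a difference of 0.36 ± 0.04 in log2(TPM + 1), and with etoposide it was 0.32 ± 0.04. The ratio of Alg12 to Creld2 within a library fell in separate ranges, 0.073 to 0.087 in the untreated knockout and 0.144 to 0.147 in untreated wild type. Sec61b, a subunit of the protein-conducting channel of the same membrane, was higher in the knockout as Alg2 was, at 344 ± 4.73 TPM against 304 ± 11.5 TPM in wild type, untreated (SD, n = 3), a difference of 0.18 ± 0.03. Exosc8, a subunit of the RNA exosome, averaged 145 ± 6.65 TPM in the untreated knockout and 152 ± 9.24 TPM in untreated wild type, and it was not called. Nor were Atp7b, a copper transporter, at -0.21 ± 0.11, and Eef1akmt4, at 0.06 ± 0.10. Eef1ece2 was listed at 0 in 10 of the 12 libraries and was not described further.

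The Alg12 promoter is shown because this stretch also lies before Creld2. It is the RefSeq window of 250 bases before the annotated start, chr15:88819319-88819568 on the minus strand of GRCm38.p6, printed in the direction of Alg12. The first run of capitals is a match to CCAAT, any 9 bases, then CCACG, searched on both strands, the endoplasmic reticulum stress element through which unfolded proteins induce chaperone genes. The later capitals are a CCAAT box, GGGCGG boxes on either strand and a CCGGAAG core on the other strand.
Alg12: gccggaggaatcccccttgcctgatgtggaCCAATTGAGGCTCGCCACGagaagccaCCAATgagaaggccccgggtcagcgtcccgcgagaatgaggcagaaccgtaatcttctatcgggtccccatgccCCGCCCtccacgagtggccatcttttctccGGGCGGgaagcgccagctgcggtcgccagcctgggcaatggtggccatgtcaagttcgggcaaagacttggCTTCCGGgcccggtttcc
The stress element was present in 39 of 32851 windows, or 0.119%, and in 1 of the 8 ALG windows. It starts 220 bases before the annotated start of Alg12, and the window of Creld2 holds the same 19 letters on its other strand. CCAAT alone, which is part of the element, was in 37.4% of all windows and in 3 of the 8. Alg1, Alg3, Alg5, Alg6, Alg9 and Alg10b were the other ALG genes with a window, and Alg2 and Alg11 had none in the table.

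**Figure D3:**
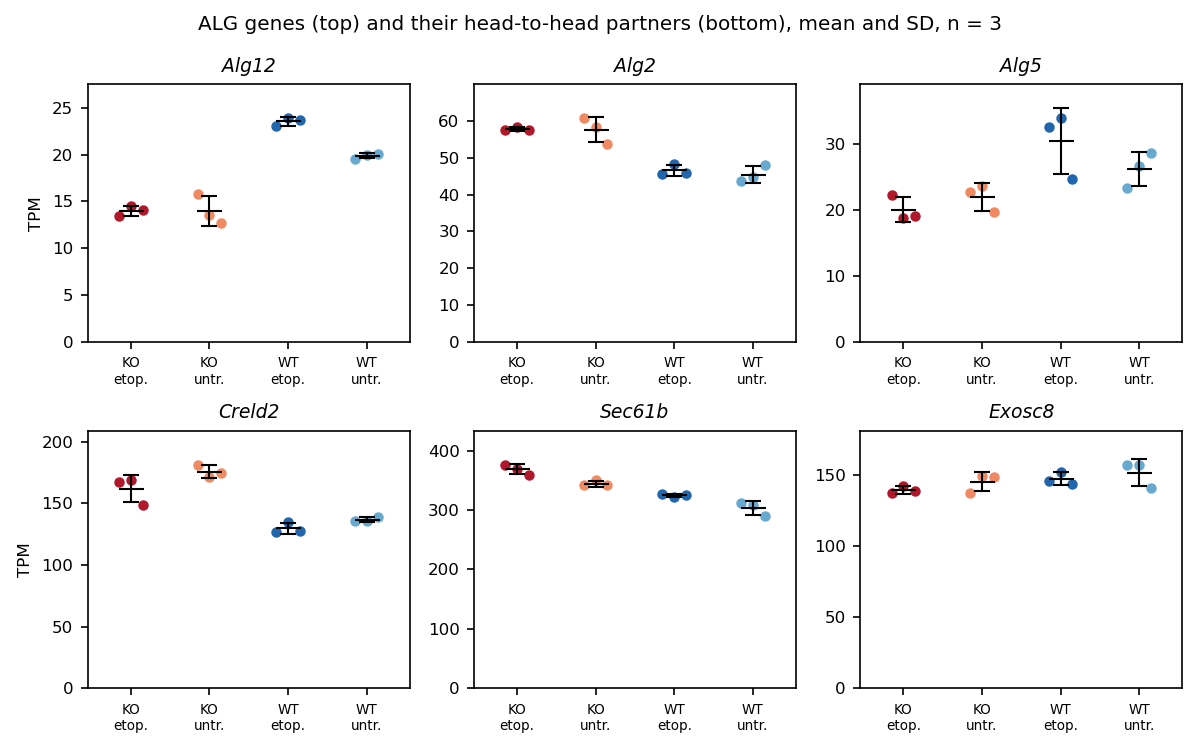
TPM by library (points) with group mean and SD (black, n = 3) of Alg12, Alg2 and Alg5 (top) and of the genes that start next to them on the other strand, Creld2, Sec61b and Exosc8 (bottom). In the knockout Alg12 is lower and Creld2 higher than in wild type, and Alg2 and Sec61b are both higher.

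The order of the levels shifted with the genotype. In the untreated knockout the members ran, from highest to lowest mean TPM, Alg2, Alg10b, Alg6, Alg3, Alg11, Alg9, Alg5, Alg1, Alg12 and Alg8. In untreated wild type the order was Alg10b, Alg3, Alg2, Alg6, Alg1, Alg11, Alg5, Alg9, Alg12 and Alg8. Neighbours whose libraries overlapped were Alg6 with Alg3 and Alg5 with Alg1 in the knockout, and Alg3 with Alg2, Alg11 with Alg5 and Alg5 with Alg9 in wild type. Alg8 was last in every group, at 2.58 ± 0.25 TPM in the untreated knockout and 15.3 ± 1.09 TPM in untreated wild type (SD, n = 3). The 10 genes summed to 286 to 301 TPM per library in the untreated knockout, against 317 to 343 TPM in untreated wild type. Without Alg8 the sums were 283 to 298 TPM and 303 to 327 TPM in the same order.

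The second question is whether etoposide moved these genes within a genotype. The change was not used to choose the set, although the untreated libraries that enter it are the same. In wild type 1 of the 10 members was called, Alg12, which was higher with etoposide, against 34.3% of all genes called. In the knockout 0 of 10 were called by limma at the adjusted threshold, against 25% of all genes. There 1 of the 10 had an unadjusted limma p under 0.05, beside 5161 of the 14107 genes. The members' median change was -0.01 in log2(TPM + 1) in each genotype, against 0.02 in wild type and 0.002 in the knockout for all genes.

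Alg12 in wild type was at 23.0, 23.9 and 23.7 TPM with etoposide, against 19.6, 19.9 and 20.1 TPM untreated. All treated libraries lay above all untreated ones, and the change was 0.23 ± 0.07 in log2(TPM + 1) (limma with Benjamini-Hochberg adjustment, adjusted p = 0.0156). It was lost under quantile normalization (0.15, adjusted p = 0.0816), and the adjusted p ranged from 0.00236 to 0.0816 over the alternatives. In the knockout the treated libraries were at 13.5, 14.5 and 14.0 TPM, inside the untreated range of 12.7 to 15.8 TPM, with a change of 0.005 ± 0.07 (limma adjusted p = 0.969). The difference between those changes, the interaction, was -0.23 ± 0.09 and did not pass (limma with Benjamini-Hochberg adjustment, adjusted p = 0.367). The rise in wild type is therefore not shown to be particular to that genotype.

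Alg8 did not respond detectably to etoposide. Its change was 0.02 ± 0.09 in the knockout (limma adjusted p = 0.916, 95% interval -0.19 to 0.22) and -0.03 ± 0.09 in wild type (limma adjusted p = 0.847, 95% interval -0.23 to 0.17). Alg3 with etoposide lay below all untreated libraries in wild type, at 41.0 to 45.0 TPM against 45.1 to 46.5 TPM. Full separation was seen in 46.6% of all genes there, with 19.6% lower and 27% higher, and in 1 ALG gene each way, Alg3 and Alg12. Its change of -0.11 ± 0.05 did not pass (limma adjusted p = 0.11), but did with median-of-ratios scaling or quantile normalization. In the knockout the change of Alg3 was -0.09 ± 0.05 (limma adjusted p = 0.204). Alg10b changed by -0.09 ± 0.04 in the knockout and by -0.08 ± 0.04 in wild type, and neither passed (limma adjusted p = 0.129 and 0.191). The change in wild type passed with both of those scalings. Alg5 changed by -0.13 ± 0.12 in the knockout and 0.20 ± 0.12 in wild type (limma adjusted p = 0.483 and 0.221). With replicate 3 of treated wild type left out, Alg5 changed there by 0.34, which passed. That library was low in TPM but not in read depth. The unscaled mean read depth over Alg5 in wild type was 25.3 to 32.1 with etoposide and 29.1 to 30.0 untreated. In the knockout Alg10b was fully lower and Alg11 fully higher with etoposide, beside 18.1% and 21.4% of all genes (39.5% either way). In the interaction 0 of 10 members were called by limma, against 1.23% of all genes (0.0709% higher and 1.16% lower). Of the 10, 1 had an unadjusted limma p under 0.05, beside 1604 of the 14107 genes. The interactions ran from -0.33 for Alg5 to 0.07 for Alg11.

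**Figure D4:**
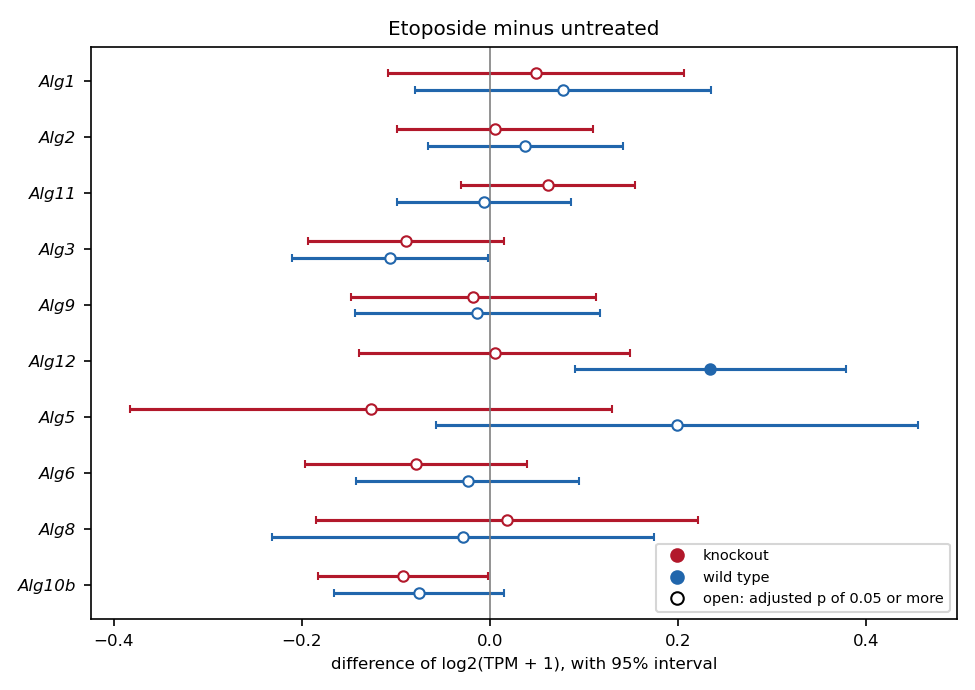
Difference of log2(TPM + 1), etoposide minus untreated, for each ALG gene in the knockout (red, upper) and in wild type (blue, lower), with 95% intervals from the fit across all genes (n = 3 libraries per group). The filled point, Alg12 in wild type at 0.23, is the one with an adjusted p under 0.05, and all changes lie between -0.13 and 0.23.

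The rest of the pathway was followed with chaperones and degradation factors of the endoplasmic reticulum, in 7 lists of 77 genes, 76 of which were tested. In untreated cells 28 of the 76 were called higher in the knockout and 17 lower, beside 28.1% and 21.5% of all genes. The chaperones and degradation factors, which are not themselves part of the pathway, gave 11 of the higher calls and 1 of the lower. With etoposide the counts were 20 higher and 17 lower, beside 22.5% and 21.7% of all genes. These comparisons share the contrast that chose Alg8 and are given as a description. The lists therefore did not move in a single direction.

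Of the 8 remaining assembly genes, 3 were lower and none higher in the untreated knockout, beside 21.5% and 28.1% of all genes. Their median was -0.10 in log2(TPM + 1), against 0.04 for all genes. Among etoposide-treated cells 2 were higher and 3 lower in the knockout, beside 22.5% and 21.7% of all genes. The median was then 0.008, against 0.02 for all genes. The 2 higher genes were Dpm1 and Dpagt1, the latter at 0.36 ± 0.10. Alg14, which anchors the enzyme that adds the second N-acetylglucosamine, was at 6.56 ± 0.50 TPM in the untreated knockout and 10.8 ± 0.27 TPM in untreated wild type (SD, n = 3). The catalytic partner of Alg14, Alg13, was at 337 ± 7.28 TPM in the untreated knockout and 325 ± 8.21 TPM in untreated wild type, and was not called. Dpm2, a regulatory subunit of dolichol-phosphate-mannose synthase, was lower by a difference of -0.43 ± 0.05. Dpm1, the catalytic subunit, was higher in the knockout than in wild type with etoposide present, by 1.57 ± 0.48. Its level was 25.7, 23.4 and 27.8 TPM in the treated knockout, against 4.91, 4.84 and 19.6 TPM in treated wild type, where the libraries spread widely.

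The lists beyond assembly held calls in both directions. Their counts stand beside 28.1% of all genes called higher and 21.5% called lower in the untreated knockout. Dolichol supply had 1 gene higher and 1 lower of 5 in the untreated knockout, with Srd5a3, a reductase of dolichol synthesis, at -0.33 ± 0.07. Nucleotide sugar supply had 4 higher and 3 lower of 10, with Pgm3 at 0.45 ± 0.11, Gfpt1, the entry enzyme of the hexosamine pathway, at 0.38 ± 0.04, and Pmm2 at 0.33 ± 0.04. The oligosaccharyltransferase had 3 higher and 3 lower of 12, with Ostc at -0.37 ± 0.05 and the catalytic subunit Stt3a at 0.27 ± 0.02. Trimming and quality control had 6 higher and 4 lower of 12 tested, with Ngly1, the cytosolic glycanase, at -0.60 ± 0.13, and Ganab, the catalytic subunit of glucosidase II, at -0.39 ± 0.03. Among its higher genes was Edem1, which directs misfolded glycoproteins to degradation, at 0.30 ± 0.09, named after its value had been seen. Golgi processing had 3 higher and 2 lower of 13, with Man1a, a mannosidase of low level here, at 0.43 ± 0.09 and Fut8, the core fucosyltransferase, at -0.39 ± 0.07.

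Chaperones and degradation factors of the endoplasmic reticulum leaned higher. Of 16, 11 were called higher and 1 lower in the untreated knockout, beside 28.1% and 21.5% of all genes. Their median was 0.19 in log2(TPM + 1), against 0.04 for all genes. With etoposide 9 were higher and 1 was lower, beside 22.5% and 21.7% of all genes. The median was then 0.15, against 0.02 for all genes. Herpud1, a degradation factor, was at 17.9 ± 1.14 TPM in the untreated knockout and 12.6 ± 0.74 TPM in untreated wild type, a difference of 0.47 ± 0.08. Syvn1, a ubiquitin ligase, differed by 0.38 ± 0.04. The gene that was lower was Xbp1, a transcription factor of the unfolded protein response, at -0.20 ± 0.05, and Hspa5, the main chaperone of the lumen, was not called at 0.03 ± 0.03. Xbp1 and Hspa5 were picked out after their values had been seen. Creld2, the partner of Alg12, is one of these 16 genes.

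**Figure D5:**
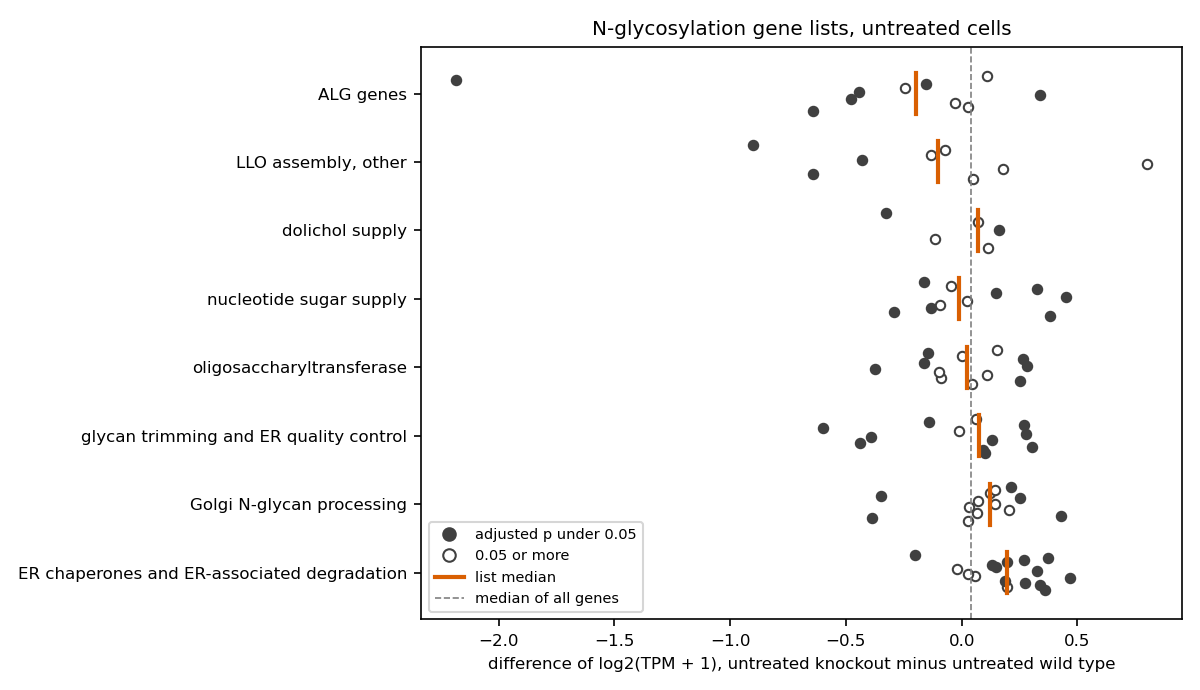
Difference of log2(TPM + 1), untreated knockout minus untreated wild type, for each tested gene of the ALG set and of 7 further lists. These cover the N-glycosylation pathway and, in the last list, chaperones and degradation factors (LLO is the lipid-linked oligosaccharide). Filled points have an adjusted p under 0.05, orange bars are list medians and the dashed line is the median of all genes at 0.04. The medians run from -0.20 for the ALG genes to 0.19 for the chaperones.

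The same 76 genes were followed with etoposide. In the knockout 3 of 76 were called higher and 14 lower, beside 14.5% and 10.5% of all genes, and in wild type 13 were higher and 10 lower, beside 20.8% and 13.5%. Pmm1, a phosphomannomutase, stood out, at 430 ± 6.93 TPM with etoposide and 318 ± 4.76 TPM untreated in the knockout, and 444 ± 7.27 TPM with etoposide and 287 ± 8.04 TPM untreated in wild type (SD, n = 3). Its change was 0.44 ± 0.02 in the knockout (limma adjusted p = 2.1e-07) and 0.63 ± 0.02 in wild type (limma adjusted p = 2.37e-09). The interaction of -0.19 ± 0.03 passed (limma with Benjamini-Hochberg adjustment, adjusted p = 0.0197), the 1 call among the 76 genes. Stt3b, a catalytic subunit of the oligosaccharyltransferase, fell by 0.21 ± 0.03 in the knockout and by 0.17 ± 0.03 in wild type (limma adjusted p = 0.000271 and 0.000723). Mgat3, which adds the bisecting N-acetylglucosamine, fell by 0.37 ± 0.06 in the knockout and by 0.25 ± 0.06 in wild type (limma adjusted p = 0.000565 and 0.00491).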

How the data were processed

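RNA of mouse embryonic stem cells was measured in 12 libraries, 3 in each of 4 groups. Per the labels, RNA was poly(A)-selected, depleted of ribosomal RNA and made into strand-specific libraries. Per the submitters' processing notes, the tools were Trim Galore 0.6.6, cutadapt 3.4, HISAT2 2.2.1 and StringTie 2.2.1, with the build GRCm39. The authors' deposited TPM values, named so per the file headers, are gene levels scaled by length and to a fixed total. The deposited FPKM values are the authors' levels scaled by length and mapped fragments. The deposited coverage values are the authors' mean depth over a gene, unscaled. Since no column holds reads per gene, count models were not applied, and the strand setting of the counting is not given in the sources used here.

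Entries that shared an ID (at most 4 extra per library) were summed. The 14107 genes averaging 1 TPM or more across the 12 libraries entered limma 3.58.1 (R 4.3.3) as log2(TPM + 1), with 4 group means, a variance trend, prior degrees of freedom 3.91 and residual 8. Tests were two-sided, with Benjamini-Hochberg adjustment within each of 5 comparisons, called at 0.05. Aligned bases come from the ratio of coverage to FPKM that 27.6% to 28.2% of genes above 1 FPKM shared. The labels call the replicates biological but describe no separate cultures, so the spread behind each p value may be technical. Replicates correlated at 0.994 to 0.995 across genes and no libraries were identical. The fit was tested on simulated data.

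The members, the gene lists and the motifs were chosen with earlier results of these data known. Named genes were the members, their head-to-head partners and overlapping genes, Bod1l, the 5 genes most correlated with Alg8 without clone, model and pseudogene names, and up to 3 called genes of largest difference per list and comparison. Others, such as Alg13, are named as parts of a list. Some genes that these rules select are not reported here. The neighbours of Alg8 and the GCATGCGC search were chosen after the data had been seen. Alternatives were a pseudocount of 0.1, other filters, FPKM, other scalings, a replicate block, a robust prior, fits restricted to the groups of a comparison and leaving out each library. Promoters are RefSeq windows of GRCm38.p6 matched by symbol (8 of 10 members). Summaries were made in Python 3.11.15 (pandas 2.3.3, numpy 2.4.6) and plots in matplotlib 3.10.9. Protein sequences were not analysed here.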

Additional observations from a re-analysis of the deposited data

How the results depend on the processing

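The counts of ALG genes called were recomputed under 21 alternatives, 12 of them leaving out 1 library. The number called between genotypes stayed within 1.5 times under all of these, at 5 to 7 without 1 library in untreated cells and 7 with etoposide. In wild type, the count called with etoposide was 3 with median-of-ratios scaling and 2 with quantile normalization, against 1, and 1 to 2 without 1 library. The cause was not tested. In the knockout and in the interaction it was 0 under every alternative run. The difference of Alg8 between genotypes was -2.52 with a pseudocount of 0.1 and -1.79 with FPKM in untreated cells, which follows from how the pseudocount weighs on low values. The 35 member results were every member's differences between genotypes, with the etoposide changes and interactions of Alg3, Alg5, Alg8, Alg10b and Alg12. Alg8 apart, the latter were the members called for etoposide under some setting. Those results that changed sign were all uncalled. Between genotypes Alg10b was at -0.0061 to 0.0282 in untreated cells under alternatives other than leaving out 1 library. With etoposide it was at -0.0067 to 0.0108 under those, and -0.0203 to 0.0341 without 1 library. In the knockout the etoposide change of Alg12 was -0.0004 with FPKM, -0.0105 with median-of-ratios scaling and -0.047 with quantile normalization, and -0.059 to 0.0887 without 1 library, and that of Alg8 was -0.0929 with quantile normalization and -0.0754 to 0.0963 without 1 library. In wild type that of Alg8 was -0.0846 to 0.0058 without 1 library. The interaction of Alg8 was -0.047 to 0.1247, that of Alg3 -0.0236 to 0.0555 and that of Alg10b -0.0507 to 0.0102 without 1 library, and that of Alg10b was 0.0138 with median-of-ratios scaling and 0.0051 with quantile normalization. Between genotypes, Alg9 with etoposide passed under quantile normalization and Alg5 in untreated cells passed without replicate 3 of treated wild type. Scaling moved the share of higher calls among all genes with etoposide in wild type, 60.7%, to 45.5% with median-of-ratios scaling and 43.9% with quantile normalization. Replicate numbers are shared by all groups, but same-numbered libraries did not deviate together (correlations -0.045 to 0.045 over 18 pairs), so they are taken to share only a number. With the replicate block, the number of ALG genes called was 6 in untreated cells, 7 with etoposide, 1 for etoposide in wild type and 0 in the knockout and in the interaction, and the call of no member changed. Depth limits Alg8 in the knockout most, where its mean read depth was 3.92 to 6.64.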

Other observations

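The nearest genes of mean TPM of at least 1 on either side of Alg8, chosen after the data had been seen, moved less than it did. Ndufc2, a subunit of respiratory complex I that starts 7844 bases after the end of Alg8, was at 121 ± 2.68 TPM in the untreated knockout and 130 ± 4.35 TPM in untreated wild type (SD, n = 3), a difference of -0.10 ± 0.04 in log2(TPM + 1). Kctd21, 21354 bases before Alg8, was at 2.00 ± 0.24 TPM in the untreated knockout and 2.80 ± 0.41 TPM in untreated wild type, a difference of -0.34 ± 0.11. Usp35, 39272 bases before it, was higher in the knockout, at 10.5 ± 0.94 TPM against 6.95 ± 0.66 TPM in wild type, untreated. Thrsp, 20774 bases after it, was not called, at -0.09 ± 0.15. Among etoposide-treated cells Ndufc2 was lower in the knockout by a difference of -0.26 ± 0.04. The others were not called there, with Kctd21 at 0.02 ± 0.11, Usp35 at 0.21 ± 0.10 and Thrsp at 0.24 ± 0.15.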
